A study of Drosophila melanogaster with 8 samples.

Results

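The genes that build ribosomes were examined in the heads of Canton-S female Drosophila melanogaster, a common laboratory wild-type strain, after adult life under a short or a long photoperiod. The list held 31 genes, named for the nucleolus, ribosome assembly and RNA polymerase I, and each was taken by its symbol in the platform annotation. Of these, 27 had a probe set of their own on the Affymetrix array, out of 11982 such genes in the whole series. The remaining 4 were left out: nop5 and Nmd3 had no probe set of their own, Nip7 was not found, and CG1234 was listed only under its newer symbol Noc3. A further 2 of the 27, Ns2 and nclb, sat near the lowest deposited value on all arrays, so that 25 genes could be compared.

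Newly emerged flies were kept at 12.5 °C for 12 days, the short day group under 10 h light and 14 h dark and the long day group under 16 h light and 8 h dark, and the females were taken 4 h after lights-on, per the labels. The study's methods give a shorter short photoperiod and a wider collection window; the times above are those of the labels. Head RNA of 4 samples per photoperiod was hybridised, with 1 array to a sample. Neither the number of heads per sample nor the use of separate vials is stated, so the error behind each p-value is that between samples and may be technical in part.

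Ribosomes are assembled in the nucleolus. RNA polymerase I transcribes the long ribosomal RNA precursor there, small nucleolar ribonucleoproteins (snoRNPs) guide its chemical modification and cleavage, and helicases, GTPases and scaffold proteins then fold it with ribosomal proteins into the small and the large subunit. Box C/D snoRNPs methylate the ribosomal RNA, and box H/ACA snoRNPs convert uridine to pseudouridine. In flies as in other animals, transcription of these assembly factors follows growth and nutrition, in part through the transcription factor Myc.

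The photoreceptor, neuronal and glial markers of a head were present, with 7 of 7, 10 of 10 and 7 of 7 at a mean log2 value of 4 or more. Of 10 ovary markers only grk reached a mean of 4, and vas, osk and bam were at the lowest value on all arrays. None of 7 testis and male accessory gland markers reached it. One array stood apart: in short day replicate 3 fln (flightin), a protein of indirect flight muscle, was at 11.71, whereas its highest value elsewhere was 2.69. This array is used throughout, and results that turn on it are given without it as well.

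In short day heads most of these transcripts were lower by small amounts. Of the 25 genes, 8 fell and none rose at an unadjusted p under 0.01 in limma, the threshold of the study: Fib, Nop56, Nop60B, Ns1, Ns3, bys, Mys45A and l(3)72Dn. The share of members that fell was 32.0%, whereas 2.74% of the 7348 genes of mean log2 value 4 or more fell and 2.91% rose. Over all 11982 genes 1.69% fell and 1.79% rose, 3.48% in either direction. The members were chosen with earlier results of these data known, so these shares are a description only. The fallen transcripts were at 0.761 to 0.886 of their long day level. In 23 of the 25 genes the short day mean was the lower one, against 43.8% of genes of mean 4 or more, and the median log2 difference, short day minus long day, was -0.18 against 0.02 over those genes. All 4 short day values lay below all 4 long day values in 9 members, the 8 called genes and pit, and above them in none, against 5.48% and 6.18% of genes of mean 4 or more. At an unadjusted p under 0.05 in limma 13 members were lower, against 8.11% of genes of mean 4 or more, and none was higher. No member passed 0.05 after Benjamini-Hochberg adjustment over all 18769 probe sets in limma, and the smallest adjusted p was 0.220, that of Ns1. The count of fallen genes moved with single arrays: it was 3 without short day replicate 1, 2 or 4 or long day replicate 4, and 4 without long day replicate 1 or 3. The share of all genes was not taken in these fits, so a loss among the members cannot be told from a general loss of calls. With a trend and robust variance model no member was called, where 0.759% of all genes were lower.

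**Figure D1:**
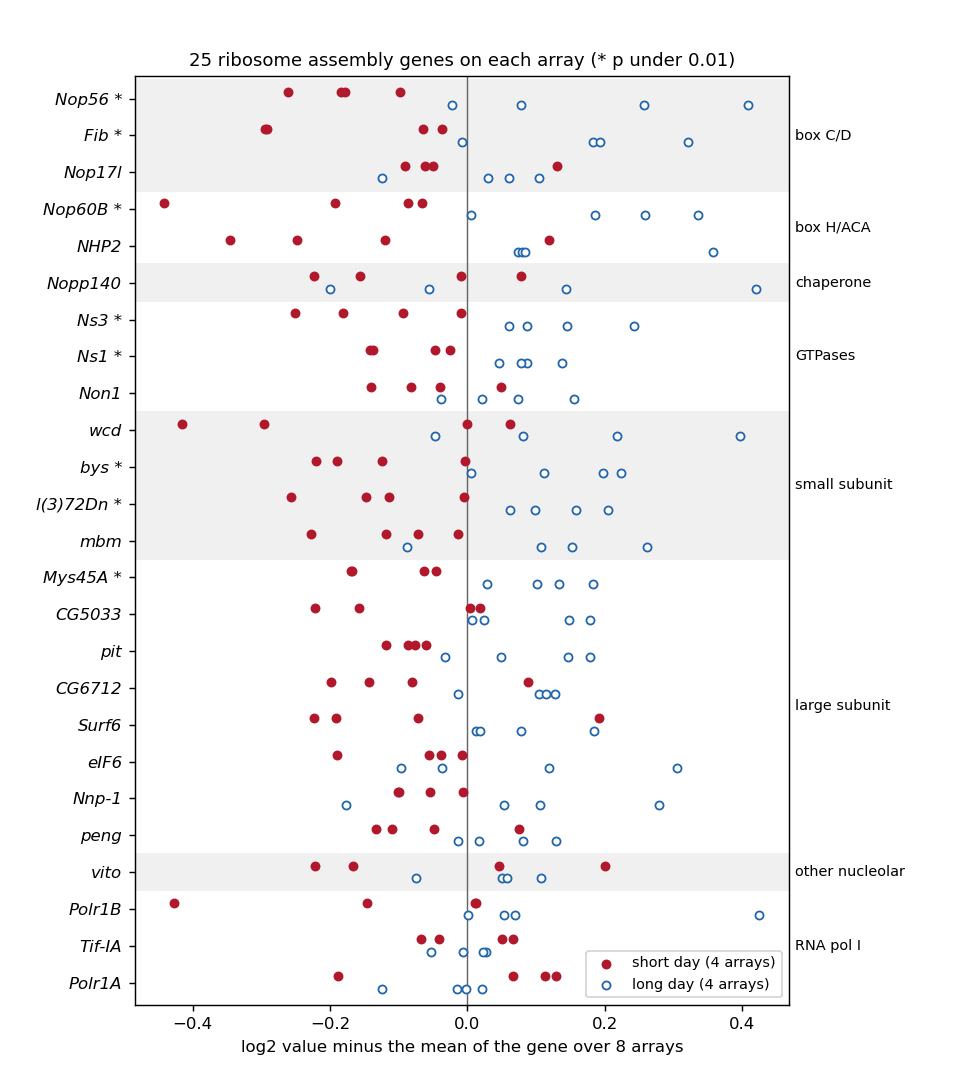
Log2 expression value of each of 25 ribosome assembly genes on each of 8 arrays, as the deviation from the mean of that gene over all arrays, with short day arrays as filled points above long day arrays as open points. Genes are grouped by role, and an asterisk marks the 8 genes with an unadjusted limma p under 0.01, in which all short day points lie to the left of all long day points.

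Of the box C/D group, both core proteins that were measured fell. Unadjusted and adjusted p-values below are from the limma fit over all probe sets. Fib (fibrillarin), the methyltransferase of the particle, read 8.10, 8.35, 8.09 and 8.32 on the log2 scale in short day replicates 1 to 4, against 8.57, 8.38, 8.58 and 8.71 in long day replicates 1 to 4. The 4 short day values all lay below the 4 long day values, with a gap of 0.03 between short day replicate 2 and long day replicate 2. The means were 8.22 ± 0.14 in short days and 8.56 ± 0.14 in long days (SD, n = 4 each), a ratio of 0.788 (log2 difference -0.34, 95% interval -0.57 to -0.12, unadjusted p of 0.00998, adjusted p = 0.362).

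Nop56, a scaffold protein of the same particle, read 9.60, 9.59, 9.52 and 9.68 in short days and 9.85, 9.75, 10.03 and 10.19 in long days. Again no short day value reached a long day value, and the spread was wider among the long day samples. Its log2 difference was -0.36 (95% interval -0.60 to -0.12, ratio 0.778, unadjusted p of 0.00944, adjusted p = 0.360). Nop17l, a factor of snoRNP assembly, overlapped between the groups, with a log2 difference of -0.04 (95% interval -0.20 to 0.13). When arrays were left out one at a time, the call of Fib was kept without short day replicate 2 or long day replicate 2 and lost in the other 6 fits, with p up to 0.0282. That of Nop56 was kept only without long day replicate 2 and lost in the other 7, with p up to 0.0279.

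In the box H/ACA group, Nop60B, the fly dyskerin and the pseudouridine synthase of the particle, had the largest difference of the list. Its probe set read 8.17, 8.42, 8.53 and 8.55 in short days and 8.80, 8.62, 8.87 and 8.95 in long days, again without overlap. The log2 difference was -0.39 (95% interval -0.65 to -0.13, ratio 0.761, unadjusted p of 0.00990, adjusted p = 0.362). Among single-array omissions this call was kept only without long day replicate 2, and p reached 0.0286 in the other 7. A second, dimmer probe set of Nop60B had a log2 difference of -0.46 (95% interval -0.95 to 0.02) and overlapped between the groups, so that the mean of both probe sets was not called. NHP2, another protein of the particle, read 9.23, 9.00, 9.47 and 9.10 in short days and 9.42, 9.71, 9.43 and 9.43 in long days. Only short day replicate 3 reached into the long day range, and the log2 difference of -0.30 was not called (unadjusted p of 0.0445), but was called at -0.39 without that array. NHP2 stayed uncalled in the other 7 single-array omissions (limma p up to 0.104). Nopp140, a chaperone that escorts snoRNPs to the nucleolus, varied more among the long day samples than between the groups (log2 difference -0.15, 95% interval -0.51 to 0.20).

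Among the nucleolar and related GTPases, Ns1 and Ns3 of the nucleostemin family fell. Ns1, which acts in large-subunit assembly, read 8.75, 8.74, 8.84 and 8.86 in short days and 8.97, 8.96, 8.93 and 9.02 in long days. The difference was small and the replicates were tight, with SDs of 0.06 and 0.04, which gave Ns1 the smallest p of the list (log2 difference -0.18, 95% interval -0.26 to -0.09, unadjusted p of 0.00195, adjusted p = 0.220). Its probe set carries the platform suffix for sets that may match several transcripts. Ns3, a GTPase that acts late on the large subunit, read 7.10, 7.26, 7.17 and 7.35 in short days and 7.42, 7.44, 7.50 and 7.60 in long days. All short day values were below all long day values, and the log2 difference was -0.27 (95% interval -0.42 to -0.11, ratio 0.830, unadjusted p of 0.00521, adjusted p = 0.301). Ns1 kept its call in all 8 fits that left out 1 array, but lost it in 4 of the 18 alternatives. Filtering out dim probe sets raised its unadjusted limma p to 0.0119 at a cut-off of 4 and 0.0132 at 6. The other 7 called members kept their calls under both filters. The limma p of Ns1 was 0.0598 with trend and robust variance, and 0.0104 without short day replicate 3 and long day replicate 2 together. Ns3 kept its call without short day replicate 4 or long day replicate 1 and lost it in the other 6 single-array omissions (p up to 0.0168). Non1, the fly homologue of the nucleolar GTPase Nog1, overlapped, with a log2 difference of -0.11 (95% interval -0.24 to 0.03). The Ns2 probe set read 2.18 in every sample to 2 decimals, close to the lowest deposited value of 2.15, and carries no information on a difference.

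All 4 members of small-subunit assembly were lower in mean in short days, and 2 of them fell. bys (bystin), needed for late processing of the small-subunit RNA, read 7.38, 7.42, 7.60 and 7.48 in short days and 7.80, 7.83, 7.61 and 7.72 in long days. The groups came within 0.01 of each other, at short day replicate 3 and long day replicate 3, and the log2 difference was -0.27 (95% interval -0.43 to -0.11, ratio 0.830, unadjusted p of 0.00624, adjusted p = 0.314). l(3)72Dn, a predicted component of the small-subunit processome, read 6.70, 6.81, 6.96 and 6.85 in short days and 7.06, 7.12, 7.02 and 7.17 in long days. It was separated by 0.07, with a log2 difference of -0.26 (95% interval -0.41 to -0.12, ratio 0.834, unadjusted p of 0.00392, adjusted p = 0.281). wcd (wicked), which associates with the U3 snoRNP, had one of the larger log2 differences, -0.32, but also the widest spread in short days (SD 0.23), and was not called (95% interval -0.67 to 0.03). mbm (mushroom body miniature), a nucleolar protein of neural progenitors, had a log2 difference of -0.22 (95% interval -0.42 to -0.01, unadjusted p of 0.0395). Its short day values lay between 5.74 and 5.95 and its long day values between 5.88 and 6.23, with long day replicate 2 as the one that overlapped, and without that array it was called (log2 difference -0.28, unadjusted p of 0.00594). In the other 7 single-array omissions mbm was not called (limma p up to 0.0957). The bys call was kept without short day replicate 3 or long day replicate 3 and lost in the other 6 single-array omissions (p up to 0.0196). The l(3)72Dn call was lost without short day replicate 2 or 4 or long day replicate 2 or 4 (p up to 0.0130).

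Of the 8 measured members of large-subunit assembly all were lower in mean and 1 fell. Mys45A, whose human counterpart acts in large-subunit maturation and export, read 7.65, 7.77, 7.76 and 7.65 in short days and 7.92, 8.00, 7.85 and 7.95 in long days. The groups stood 0.08 apart, with SDs of 0.07 and 0.06, and the log2 difference was -0.22 (95% interval -0.33 to -0.11, ratio 0.857, unadjusted p of 0.00216, adjusted p = 0.229). This call was kept in all 8 fits that left out 1 array, and over all 18 alternatives it was lost in 2, the fewest of the 8 called genes. pit (pitchoune), a DEAD-box helicase and a known Myc target, read 8.00, 7.96, 8.02 and 7.99 in short days and 8.22, 8.13, 8.26 and 8.05 in long days. Its groups did not overlap either, but it lay just outside the threshold (log2 difference -0.17, 95% interval -0.29 to -0.05, unadjusted p of 0.0112). Without long day replicate 4, the lowest of its group, it was called (log2 difference -0.21, unadjusted p of 0.00140). It was not called in the other 7 single-array omissions (limma p up to 0.0322).

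CG5033, the homologue of the scaffold protein Bop1, and CG6712, a predicted large-subunit factor, had log2 differences of -0.18 and -0.17, with unadjusted p of 0.0437 and 0.0474. Surf6, eIF6 (which keeps the subunits apart until the large one is mature), Nnp-1 and peng (penguin) had log2 differences between -0.15 and -0.11, and the interval of each included 0. Without short day replicate 3 both CG6712 (log2 difference -0.22, unadjusted p of 0.00394) and Surf6 (log2 difference -0.24, unadjusted p of 0.00889) were called. Neither was called in the other 7 single-array omissions (limma p up to 0.110 for CG6712 and 0.383 for Surf6). Noc3, the newer symbol of CG1234 and part of a complex that moves the large subunit through the nucleus, was not matched by the platform symbol and is given as an addition made after the data were seen. It read 6.93, 6.95, 6.97 and 7.01 in short days and 7.04, 7.12, 7.13 and 7.30 in long days. The groups did not overlap, and the log2 difference of -0.18 was not called (95% interval -0.31 to -0.04, unadjusted p of 0.0168). vito (viriato), a nucleolar protein that supports growth of the fly eye, was at a log2 difference of -0.07 (95% interval -0.32 to 0.18).

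Of the RNA polymerase I members, none was called. Polr1A, the largest subunit of the enzyme, read 7.42, 7.74, 7.68 and 7.72 in short days and 7.49, 7.63, 7.60 and 7.61 in long days, with a log2 difference of 0.06 (95% interval -0.13 to 0.25). Tif-IA, the initiation factor through which growth signals reach the enzyme, read 10.00, 10.12, 10.14 and 10.03 in short days and 10.02, 10.07, 10.10 and 10.09 in long days. Its means were 10.07 ± 0.07 and 10.07 ± 0.04 (SD, n = 4 each), and the 95% interval of the log2 difference, -0.09 to 0.09, was among the narrowest of the list. These were the 2 of 25 members whose mean was not lower in short days, though the direction of Tif-IA turned in some alternatives and that of Polr1A with array weights. Polr1B, the second-largest subunit, read 5.66, 5.22, 5.50 and 5.66 in short days and 5.65, 5.72, 5.70 and 6.07 in long days. Its lowest long day value fell among the short day values, and the log2 difference of -0.27 had a 95% interval of -0.61 to 0.06. nclb, a chromatin protein that supports transcription of the ribosomal RNA genes, stayed between 2.36 and 2.48 on all arrays, near the lowest deposited value.

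**Figure D2:**
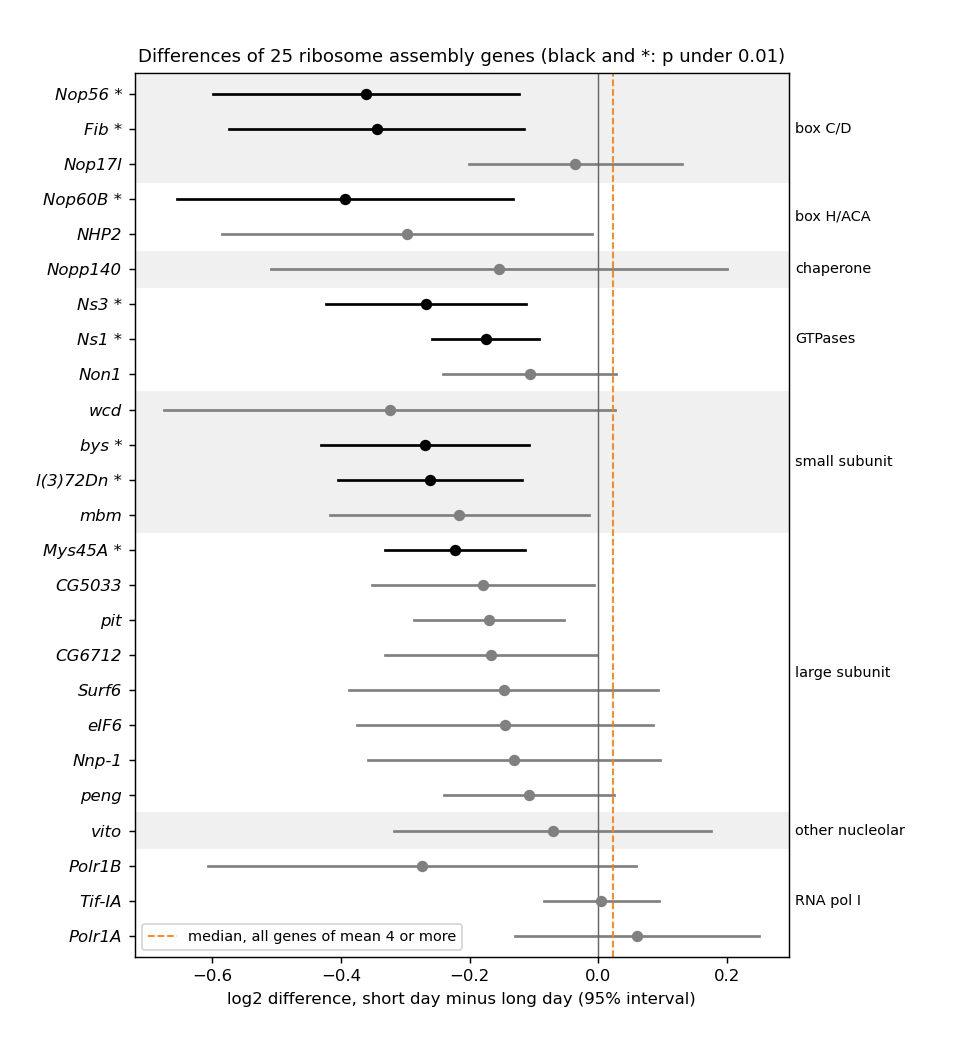
Log2 difference of each of 25 ribosome assembly genes, short day minus long day, with its 95% interval from limma over 4 arrays per group. Black points mark the 8 genes with an unadjusted p under 0.01, the dashed line is the median of 0.02 over 7348 genes of mean 4 or more, and Polr1A and Tif-IA are the only points to the right of 0.

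By array, the members lay on the same side of their means in most cases. Averaged over the 25 genes, the deviation from the mean of each gene was -0.15, -0.12, -0.04 and -0.07 in short day replicates 1 to 4 and 0.06, 0.05, 0.11 and 0.16 in long day replicates 1 to 4 on the log2 scale. The groups did not overlap, and each array of short days had 18 to 22 members below their own mean, against 2 to 8 in long days. Over all genes of mean 4 or more, the array averages lay between -0.02 and 0.03. Short day replicate 1 held the lowest value of 10 members and short day replicate 2 that of 8, while long day replicate 4 held the highest value of 10. Short day replicate 3 stood nearest to the long day arrays. Within groups, the SD of the members ranged from 0.02 to 0.23 in short days (median 0.10) and from 0.04 to 0.27 in long days (median 0.10). The median half-width of the 95% interval was 0.19, about the size of the median difference of the list.

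Markers of other tissues also differed with the photoperiod. The summed linear signal of 12 fat body markers ranged from 135100 to 164500 in short day arrays and from 191700 to 196900 in long day arrays. Such a sum is weighted to the brightest transcripts. Of the 12 markers 6 fell, Yp1, Yp2, Yp3, Lsp2, Lsd-1 and AkhR, against 2.74% of genes of mean 4 or more. Of the 11 of mean 4 or more, 9 were lower in mean, apolpp by little (log2 difference -0.06), while FASN1 (0.04) and bmm (0.12) were higher. Of 10 neuronal markers all were higher in mean in short days and 1, Snap25, rose, while 6 of 7 glial markers were lower in mean and none was called. Of 8 flight muscle markers 6 had a mean of 4 or more, and all 6 were higher in mean in short days. Among these sals (log2 difference 0.30, unadjusted p of 0.00173 in limma) and Strn-Mlck (log2 difference 0.36, unadjusted p of 0.00679 in limma) rose, in each with all short day values above all long day values and short day replicate 3 within the range of the other short day arrays or just below it. In a head homogenate, fewer cells of a type and less RNA per cell cannot be told apart, and the part of the fat body, neuronal, glial and muscle transcripts in the lower ribosome assembly transcripts was not tested. As a measure of RNA integrity, the log2 level of 5′ minus 3′ control probe sets was lower in short days in 5 of 5 probe set pairs, by means of -0.24 (eIF-4a), -0.23 (Act5C), -0.09 (actin), -0.08 and -0.02 (both GAPDH pairs). Pairs named for GAPDH or for an actin repeat each other in part, so the 5 are not independent. The groups overlapped in each pair. The smallest p by a two-sided exact permutation test was 0.0571 (0.286 after adjustment over the 5 pairs). The part of RNA integrity in the lower assembly transcripts was not tested either. Without short day replicate 3, 7 members were called lower, 4 of them among the 8 called with all arrays, where 1.8% of all genes were lower. The median log2 difference of the 25 genes was then -0.22.

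**Figure D3:**
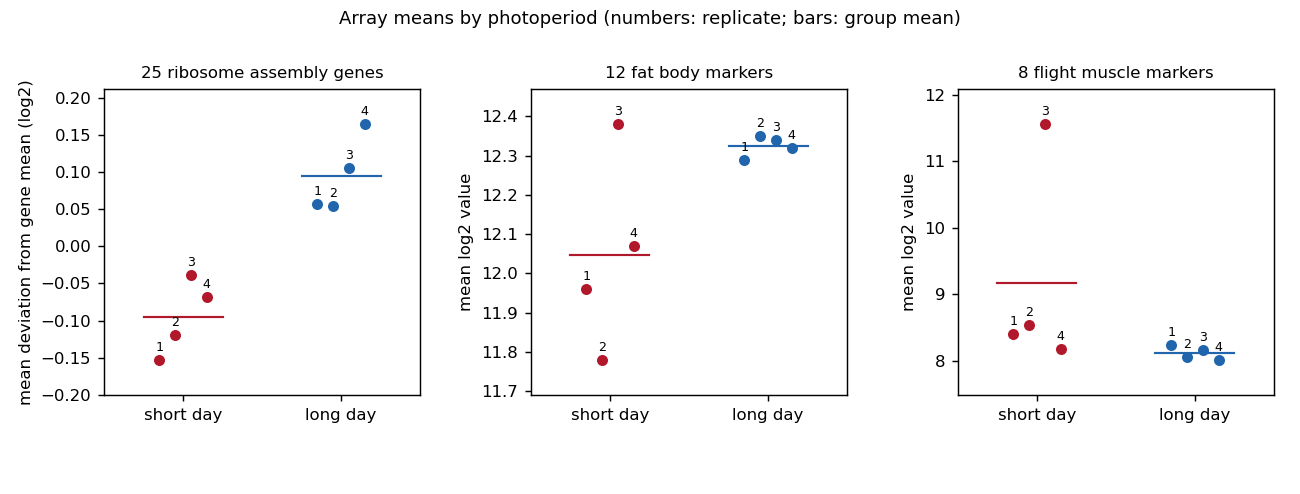
Left, mean deviation of 25 ribosome assembly genes from their own mean over 8 arrays; middle and right, mean log2 value of 12 fat body and 8 flight muscle markers, by array, with short day arrays to the left of long day arrays, replicate numbers above the points and the group mean as a bar. The ribosome assembly means do not overlap between the groups, while short day replicate 3 stands apart in flight muscle markers and its fat body mean, with Fbp1 at 6.26 there and 2.22 on all other arrays, is the highest of the 8 arrays.

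Other genes of the same pathway, taken from lists that the members are not part of, were also lower on the whole. These lists too were chosen with earlier results of these data known, and read on the same arrays, so they are no independent test. Of 52 further ribosome assembly genes, 51 had a mean of 4 or more, 43 of these were lower in mean in short days, and their median log2 difference was -0.14. Of the 51, 4 fell and none rose, a share of 7.84% against 2.74% of genes of mean 4 or more, and 10 were lower at an unadjusted p under 0.05 in limma. The 4 that fell were CG12792, Noc2, dbe and Polr1E.

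CG12792 encodes a WD40-repeat protein whose human counterpart is a ribosome assembly factor. Its probe set read 8.01, 7.99, 8.09 and 8.11 in short days and 8.43, 8.50, 8.57 and 8.57 in long days, a wider separation than in any of the 25 members (log2 difference -0.47, 95% interval -0.57 to -0.37, unadjusted p of 2.26e-05, adjusted p = 0.0617). Noc2, the partner of Noc3 in the large-subunit complex, fell to 0.700 of its long day level (log2 difference -0.51, 95% interval -0.83 to -0.20, adjusted p = 0.316). dbe (dribble), a small-subunit factor needed to process the ribosomal RNA precursor, read 6.68, 6.77, 6.75 and 6.73 in short days and 7.05, 7.29, 7.04 and 7.24 in long days (log2 difference -0.42, adjusted p = 0.171). Polr1E, a subunit of RNA polymerase I, read 7.13, 6.90, 7.25 and 6.98 in short days and 7.41, 7.30, 7.36 and 7.48 in long days, without overlap (log2 difference -0.32, adjusted p = 0.333).

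By list, the median log2 difference over genes of mean 4 or more was -0.19 for 12 other large-subunit factors, -0.16 for 6 other snoRNP proteins, -0.14 for 18 other small-subunit factors, -0.09 for 7 other genes of RNA polymerase I and -0.03 for 8 other RNA helicases. Of the products these factors work on, 28 cytosolic ribosomal proteins had a median of -0.04, with 24 lower in mean. In 5 of them all short day values lay below all long day values, and 3 fell, RpL34a, RpS12 and RpS30. The mean log2 values of the 28 ran from 11.55 (RpL34a) to 15.28 (RpL41), against a median of 8.08 over the members. The highest deposited value was 15.52, and an effect of signal level on these differences was not tested. The 26 translation initiation factors had a median of -0.03, with 17 lower in mean and 1 that fell, eIF3h (log2 difference -0.21, unadjusted p of 0.00209 in limma). Among all genes of mean 4 or more 43.8% were lower in mean, 5.48% had all short day values below all long day values, and 2.74% fell. The difference between these lists and the ribosome assembly genes was not tested. Of 9 growth regulators none was called, 6 were higher in mean in short days, and the median was 0.08. In 2 of them the 95% interval did not include 0: raptor, a subunit of the growth-promoting kinase complex TORC1, had a log2 difference of -0.45 (95% interval -0.84 to -0.06), larger in size than that of any member, and InR, the insulin receptor, one of 0.20 (95% interval 0.05 to 0.34). Max, the binding partner of Myc, had a log2 difference of -0.02 (95% interval -0.18 to 0.15), and Mnt, which opposes Myc, 0.08 (95% interval -0.14 to 0.31). Myc had no probe set of its own.

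**Figure D4:**
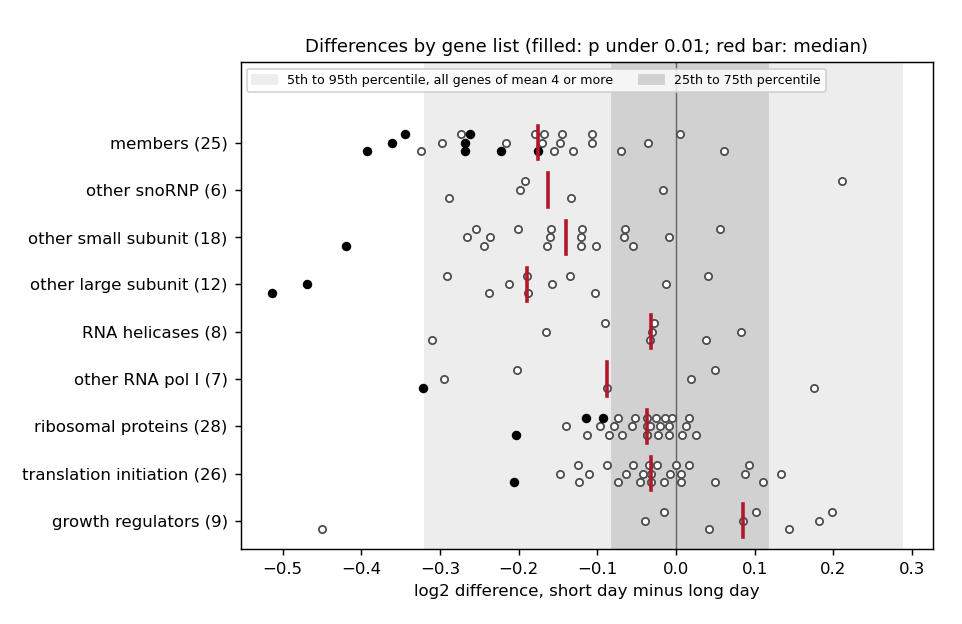
Log2 difference, short day minus long day, of each gene of mean 4 or more in the 25 ribosome assembly members and 8 comparison lists (number of genes in brackets), with filled points at an unadjusted limma p under 0.01 and a bar at the list median. The shaded bands give the range of all 7348 genes of mean 4 or more, from -0.32 at the 5th to 0.29 at the 95th percentile, and 21 of the 25 members lie below the 25th percentile of -0.08.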

How the data were processed

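Expression was measured in 8 head samples, 4 of short days and 4 of long days. The authors extracted RNA with Trizol, hybridised biotin-labelled cRNA to Affymetrix Drosophila Genome 2.0 arrays and deposited log2 values per probe set; the submitters' processing notes name GCRMA (version not given), which corrects background by probe sequence and quantile-normalises arrays. A global change in mRNA amount would therefore not be seen. The table held 18952 probe sets, of which 183 controls were set aside. Arrays had medians of 8.44 to 8.52 over 9107 probe sets of mean 4 or more, and pairs correlated with r between 0.983 and 0.996. No scan date was used and no batch tested.

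Each gene was represented by its highest-mean probe set among those annotated to it alone. Short day minus long day differences were fitted on all 18769 probe sets with limma 3.58.1 in R 4.3.3 (lmFit, eBayes, two-sided, no block). An unadjusted p under 0.01 was a call. The members and lists were chosen with earlier results of these data known, so no p over a list is given. All called members are given in full, with the other members by value, and up to 3 called genes of each comparison list by smallest p. Among the uncalled growth regulators, Max and Mnt were to be named whatever they showed. The genes raptor and InR were added after their values were seen. Tissue markers were named outside this rule. From the comparison lists 3 symbols were removed as naming other or uncertain genes. Some listed symbols were matched through a single RefSeq synonym. Promoter motifs, though planned, were not examined, since no sequences were used. Of 53 control probe sets of mean 4 or more, 4 reached the smallest p an exact permutation test allows (two-sided, 0.0286), in both directions. All 4 were sets for fly transcripts. An actin 3′ set (0.29) and a GAPDH 5′ set (0.14) were higher in short days, and the Act5C 5′ sets (-0.34 and -0.30) were lower. The comparison of 5′ with 3′ control probe sets was added after the data were seen. The limma fit was tested on simulated data, with planted shifts larger than the difference of any member. Alternatives were a replicate block, filters, other normalisations, variance models, array weights, averaged probe sets, a floor and omitted arrays.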

Additional observations from a re-analysis of the deposited data

Results flagged for a closer look

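In 3 of the 52 groups of 4 values examined, 1 array stood far from the other 3, where chance gives about 1 in 20. NHP2 was at 9.71 in long day replicate 2, against 9.42 to 9.43 in the other long day samples. Polr1B was at 6.07 in long day replicate 4, against 5.65 to 5.72 in the others. CG6712 was at 8.08 in long day replicate 1, against 8.19 to 8.22 in the others.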

How the results depend on the processing

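The members were compared under 18 alternatives, and the count of called members also at 2 other thresholds, over members of mean 4 or more alone and with Noc3 added. In the 18 alternatives the 8 called genes kept their direction, no member was called higher and no member passed 0.05 after adjustment in limma, but 84 of the 144 values of these genes were still called. Other genes did pass: 52 of 7348 were lower at an adjusted p under 0.05 with probe sets of mean 4 or more alone, and 11 of 11982 with median centring. Kept calls of other genes were not counted, so a loss among the members cannot be told from a general loss of calls. The count of members lower in short days, 8, became 0 with trend and robust variance, 4 without short day replicate 3 and long day replicate 2 together, 13 at an unadjusted p under 0.05 and 0 at an adjusted p under 0.05. With trend and robust variance 0.759% of all genes were lower. That share was not taken without short day replicate 3 and long day replicate 2 together. The count of members was between 3 and 7 when single arrays were left out, and of these fits the share of all genes was taken only without short day replicate 3 (1.8% lower). The median over the 27 members, -0.17, was -0.22 without short day replicate 3 and long day replicate 2 together and between -0.21 and -0.16 without single arrays.

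The shared replicate numbers did not pair the samples: the correlations of same-numbered deviations were 0.01, -0.23, -0.14 and 0.17, and 2 of 8 samples correlated best with their own number. The largest correlation between the groups was 0.335, between short day replicate 3 and long day replicate 2, the arrays that were also left out together. With the replicate number as a block 3 members were called lower, 2 of them among the 8, and CG5033 was the third. In that fit 0.885% of all genes were lower.

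Directions turned only in members with differences near 0. Tif-IA was at -0.028 after a second quantile normalisation, -0.016 after median centring, -0.028 with array weights, -0.018 without short day replicate 3 and long day replicate 2 together, and between -0.017 and 0.028 without single arrays. Polr1A was at -0.0015 with array weights. nclb was between -0.030 and 0.0084 and Ns2 between -0.0018 and 0.00053 without single arrays. Scaling moved the median of all genes by no more than 0.02. Signal near the lowest value limits Ns2 and nclb, and the number of arrays limits the rest.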
